A study of Mus musculus with 3 samples.

Results

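The AP-1 and BATF transcription factors described here were Fos, Fosb, Fosl1, Fosl2, Jun, Junb, Jund, Atf3, Batf2 and Batf3. They were chosen by name as 10 genes of the basic leucine zipper (bZIP) class, with earlier results of these arrays known, and Batf2 was listed with its difference already seen. They were 10 of 45608 names on the array, of which 22911 carried a gene symbol, and they had 14 of its 56605 probes. The arrays measured how overexpression of Mst1r, a receptor tyrosine kinase also called RON, or of Slpi, a secreted protease inhibitor, changed the transcripts of Hepa1c1c7 cells. Hepa1c1c7 is a mouse hepatoma cell line. All 3 groups were this line after transient transfection, and they differed in the insert of the expression vector, which was empty or held the coding sequence of Mst1r or of Slpi. Each group was 1 sample analysed on 1 single-colour Agilent array, so no difference below has a replicate check and no test between groups could be made.

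bZIP proteins bind DNA only as dimers, held together by a leucine zipper next to a basic stretch that contacts the bases. Jun proteins pair with themselves, with Fos proteins or with ATF proteins, whereas Fos proteins need a Jun partner, and the dimers are called AP-1. Several of these genes are immediate early genes, which growth factor receptors, stress and cytokines switch on through mitogen-activated protein kinases. BATF proteins pair with Jun but lack the activation domains of Fos, and together with IRF proteins they bind composite sites in immune cells.

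The promoters are given first, to show which known elements lie near the starts of these genes. RefSeq (GRCm38.p6) gave a promoter window, from 250 bases before to 50 bases after the start, for 8 of the 10 genes. No window was available for Batf2 or Fosl1, so their promoters could not be examined. Fos and Atf3 are shown as members that were at least 2-fold higher on the Mst1r vector array, and Junb as a member with the same letters that was not. Capitals mark TGACG, the core of the cyclic AMP response element, on either strand, and the TATA box letters TATAAA.
Fos (chr12:85473640-85473939, plus strand): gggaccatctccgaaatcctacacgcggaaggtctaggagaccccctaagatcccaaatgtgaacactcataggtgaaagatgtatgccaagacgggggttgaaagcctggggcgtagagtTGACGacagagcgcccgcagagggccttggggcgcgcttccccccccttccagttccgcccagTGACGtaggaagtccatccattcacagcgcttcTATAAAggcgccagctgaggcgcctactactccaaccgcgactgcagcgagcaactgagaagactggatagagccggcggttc
Atf3 (chr1:191183284-191183583, minus strand): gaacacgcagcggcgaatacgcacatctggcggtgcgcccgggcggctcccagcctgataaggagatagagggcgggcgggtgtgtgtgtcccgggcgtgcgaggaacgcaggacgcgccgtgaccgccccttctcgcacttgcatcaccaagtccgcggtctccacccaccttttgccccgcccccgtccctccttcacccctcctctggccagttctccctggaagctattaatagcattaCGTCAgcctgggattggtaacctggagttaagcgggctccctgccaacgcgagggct
Junb (chr8:84978699-84978998, minus strand): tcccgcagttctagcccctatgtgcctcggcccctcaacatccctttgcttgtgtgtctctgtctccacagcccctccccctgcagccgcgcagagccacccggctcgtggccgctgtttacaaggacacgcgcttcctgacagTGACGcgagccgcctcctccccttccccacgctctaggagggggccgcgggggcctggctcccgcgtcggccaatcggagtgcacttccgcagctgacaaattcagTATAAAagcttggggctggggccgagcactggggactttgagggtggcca

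The Fos window held TGACG at positions -129 and -66 from the start, and TATAAA at -33. In the Atf3 window TGACG lay at -7 on the reverse strand, and in the Junb window at -106, with TATAAA at position 1. Fosb also held it, at -60, so 4 of the 8 windows did, against 20.8% of the 32851 promoters in the table. The letters TATAAA were found in 2 of the 8, Fos and Junb, against 13.6% of all promoters. TGACG and TATAAA were added to the search after the promoters were seen, so their shares carry no test. The AP-1 site TGAGTCA was found in 0 of the 8 windows (5.20% of all promoters), as was the full element TGACGTCA (1.79%), which contains the shorter letters, and the CArG box of serum response factor (1.63%). The interferon response core GAAANNGAA was found in Fosl2 and Jund (8.56% of all promoters), and the STAT site TTCNNNGAA in Batf3 (8.30%). Both strands were searched in each case, and a match describes the letters only.

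The arrays themselves were alike in depth of detection. Between 46.7% and 48.5% of 56605 probes were well above background, and the 75th percentile of the processed signal, which is the background-subtracted intensity of a spot, lay between 229 and 268. Signals are given as deposited, and each log2 difference was taken after dividing by that percentile. The error after a log2 difference is the SD expected from spots of repeatedly printed probes at that signal, and it covers no variation between cultures. After this scaling 7 spike-in control probes still differed from empty vector, by 0.10 ± 0.03 (SD, n = 7 probes) for Mst1r vector and by 0.24 ± 0.04 for Slpi vector. The arrays are called by their labels, and the transfected genes did not bear these out. The Mst1r probe, at 4.15 with empty vector and 4.08 with Mst1r vector, was nowhere well above background, and Slpi was at 6459 with empty vector and 6680 with Slpi vector. Whether these probes lie in the cloned coding sequences was not tested, so each direction below is that of the arrays as labelled. Control spots without target were over 50 mainly in rows 1 to 128 of the 384 rows, so the row of a probe is given where it matters.

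The hepatoma label was set against marker genes. Of 11 hepatocyte and hepatoma markers, 6, 6 and 8 were well above background on the empty, Mst1r and Slpi vector arrays. Alb, Afp, Krt8, Krt18 and Foxa2 were among them, and the liver factor Hnf4a was not detected on any of them. Of 12 macrophage and dendritic cell markers, the cells in which BATF proteins are best known, 6, 4 and 5 were well above background, with a summed signal of 5385, 5825 and 5196. Csf1r (2825, 3293 and 2726), Itgam (1915, 2063 and 1894) and Cd68 (530.5, 377.6 and 481.6) were well above background on each array. Ptprc, Adgre1, Itgax, Clec9a and Xcr1 of the same list were not in any of the 3. Of 7 T and B cell markers 2, 3 and 2 were detected, with a summed signal of 2196, 2071 and 2021, most of it Cd4 at 1646 with empty vector. Of 10 endothelial and stellate cell markers 7, 6 and 7 were detected, with a summed signal of 12740, 11290 and 11600, most of it Col1a1 at 6508 with empty vector. Among these Des, a muscle and stellate cell filament, was at 227, 37.9 and 58.2 in row 55, a log2 difference of -2.35 ± 0.39 for Mst1r vector and -1.89 ± 0.39 for Slpi vector. The part of other cell types in the results below was not tested.

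The largest difference among the AP-1 and BATF genes was that of Batf2. Batf2, an interferon-induced member that pairs with Jun, was at 17.0 with empty vector, at 1029 with Mst1r vector and at 17.5 on the Slpi vector array (NM_028967, row 364). Only the Mst1r vector signal was well above background, so the empty vector and Slpi vector values are no levels. Batf2 on the Mst1r vector array was therefore at least 63.7-fold above empty vector and at least 65.4-fold above Slpi vector. In bulk RNA, more cells expressing a gene and more RNA per cell cannot be told apart. The measured log2 differences were 6.15 ± 0.43 and 6.03 ± 0.43. Between Slpi vector and empty vector, both below this limit, no fold can be given. Batf2 lies at chr19:6164397-6172476 (GRCm38.p6).

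Atf3, a stress-induced repressor and activator that pairs with Jun, showed the next largest difference. Its signal was 807, 2189 and 865 on the empty, Mst1r and Slpi vector arrays (NM_007498, row 28), well above background on all 3 arrays. It was 3.18-fold higher with Mst1r vector than with empty vector (log2 difference 1.67 ± 0.13) and 2.81-fold above Slpi vector (1.49 ± 0.13). The Slpi vector array differed from empty vector by 0.18 ± 0.14. The high array was again Mst1r vector, and the other two differed by less than 2 SD of the spots.

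Fos, the founding partner of Jun in AP-1, was at 160.5, 319 and 143 on the empty, Mst1r and Slpi vector arrays (NM_010234, row 253). It was 2.33-fold higher with Mst1r vector than with empty vector (1.22 ± 0.22) and 2.47-fold above Slpi vector (1.31 ± 0.22). Slpi vector and empty vector differed by -0.08 ± 0.27, within the spread of spots. The Fos difference passed 2-fold by little, with a log2 difference of 0.99 without scaling between arrays.

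The other Fos proteins were under 2-fold in each comparison. Fosb, which like Fos carries an activation domain, was at 59.7, 77.1 and 63.9 on the empty, Mst1r and Slpi vector arrays (NM_008036, row 371). Its log2 difference from empty vector was 0.60 ± 0.39 for Mst1r vector and 0.18 ± 0.47 for Slpi vector. These signals were close to the minimum of 50 used here, and the other Fosb probe (row 242), at 5.07, 4.24 and 3.92, was nowhere well above background. Fosl1, also called Fra-1 and a product of sustained ERK signalling, was at 2390, 2548 and 2325 (NM_010235, row 59). Its log2 difference was 0.32 ± 0.12 for Mst1r vector and 0.04 ± 0.12 for Slpi vector. Fosl2, or Fra-2, was at 624.7, 530.2 and 629.4 (NM_008037, row 89), and it differed by -0.0064 ± 0.14 and 0.09 ± 0.14. The other Fosl2 probe (row 267), at 20.02, 18.8 and 24.4, was well above background only with Slpi vector. Of the Fos family, the Mst1r vector array was thus highest for Fos, Fosb and Fosl1. The Fosb difference from empty vector was less than 2 SD of the spots, and that of Fosl1 was 0.09 without scaling. Fosl2 was lowest there in unscaled signal, on the array with the lowest 75th percentile. After scaling it was still lowest there, but its differences from the other arrays were within the spread of spots.

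The Jun family, which every AP-1 dimer needs, differed less. Jun was at 1733, 1947 and 1827 on the 3 arrays in the same order (NM_010591, row 289). Its log2 difference was 0.40 ± 0.12 for Mst1r vector and 0.15 ± 0.12 for Slpi vector. Junb, which is less active than Jun on single AP-1 sites, was at 6438, 7333 and 7302 (NM_008416, row 93). Junb differed by 0.42 ± 0.13 for Mst1r vector and by 0.26 ± 0.13 for Slpi vector, the latter close to the 0.24 of the spike-in controls. A dimmer Junb probe (row 160), at 81.8, 108.2 and 88.2, gave 0.63 ± 0.27 and 0.19 ± 0.27. Jund, the member most cells express without stimulation, was at 9132, 7220 and 8868 (NM_010592, row 204). It differed by -0.11 ± 0.13 for Mst1r vector and by 0.04 ± 0.13 for Slpi vector, and its other probe (row 303), at 6311, 5475 and 7177, by 0.03 ± 0.13 and 0.26 ± 0.13. For Jund the unscaled signal was lowest on the Mst1r vector array with both probes, and the scaled difference changed sign between them.

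Batf3, which is needed for cross-presenting dendritic cells, was not detected. It was at 4.19, 8.99 and 4.85 (NM_030060, row 9), nowhere well above background, and no fold is given. Batf3 (chr1:191098414-191108943) and Atf3 (chr1:191170296-191183333) both lie on chromosome 1, and the signal of Atf3 was well above background on each array. Batf itself, from the list of other bZIP genes, was at 4.45, 6.69 and 4.06 and was likewise not detected.

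**Figure D1:**
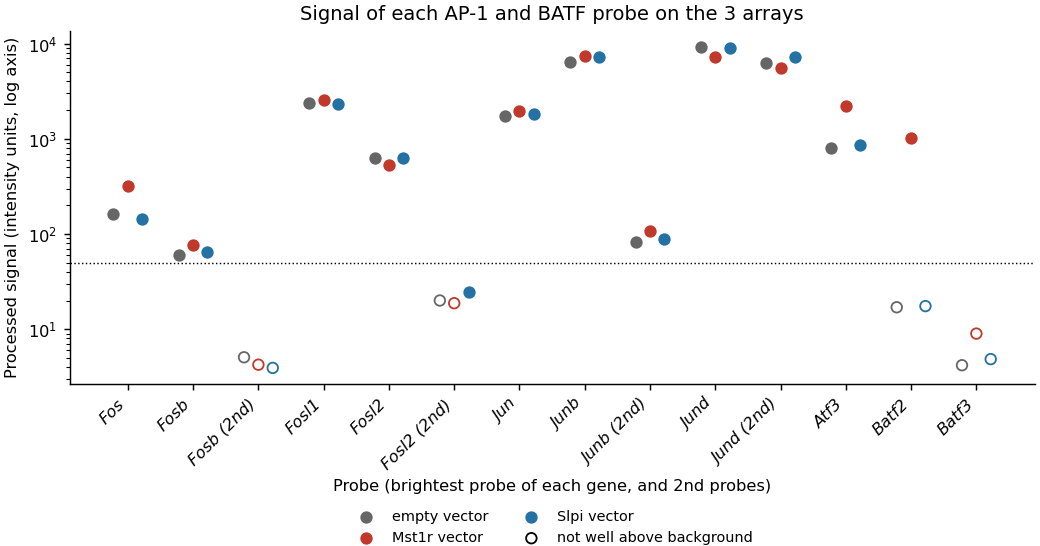
Processed signal (intensity units, log axis) of each of the 14 probes on the empty, Mst1r and Slpi vector arrays, with open circles for spots not well above background and a dotted line at 50. Batf2 was at 1029 on the Mst1r vector array and at 17.0 and 17.5 on the others, Atf3 and Fos were highest with Mst1r vector, and the points of the Jun genes lie close together.

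In all, 9 of the 10 genes had a signal over 50 on the brighter array between Mst1r vector and empty vector. Batf2, Atf3 and Fos were at least 2-fold higher, and 0 were lower, where of all features with such a signal 4.35% passed 2-fold upwards and 3.43% downwards. Batf2 was counted only through its Mst1r vector signal and was listed with its difference known, so this share carries no test. The median log2 difference of the 9 was 0.42, against -0.04 over all features.

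With Slpi vector against empty vector, 8 of the genes were bright enough to count, and 0 of them reached 2-fold in either direction. Over all features 2.73% were 2-fold or more higher and 3.24% lower. The 8 log2 differences lay between -0.08 and 0.26 with a median of 0.12. The spike-in controls stood at 0.24 in the same comparison.

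Between the Mst1r and Slpi vectors, without the empty vector array, 3 of 9 genes, again Batf2, Atf3 and Fos, were at least 2-fold higher, and 0 were lower. Over all features 4.18% passed 2-fold upwards and 2.73% downwards. The median was 0.28. These comparisons share the Mst1r vector array, so they are no independent check of each other. Batf2 was again counted only through that array.

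**Figure D2:**
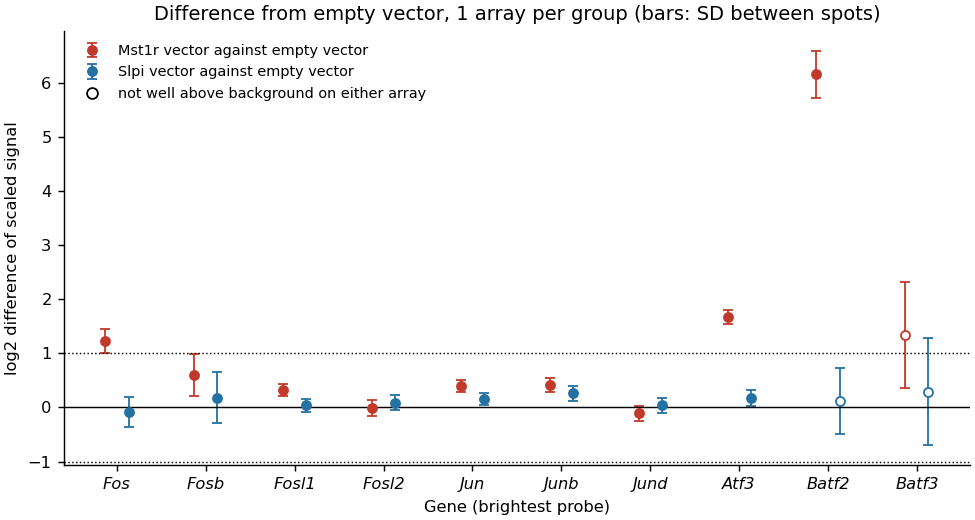
The log2 difference of scaled signal from empty vector for the brightest probe of each of the 10 genes, with Mst1r vector in red and Slpi vector in blue, bars for the SD expected between spots, and dotted lines at 2-fold. Batf2 at 6.15, Atf3 at 1.67 and Fos at 1.22 lie above the upper line with Mst1r vector, and each Slpi vector point of a detected gene lies between -0.08 and 0.26.

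Batf2 stood apart from the other detected members in size. Between Mst1r vector and empty vector its log2 difference exceeded their median of 0.41 by 5.74, or by 5.59 with Batf2 at its bound. The 8 others lay between -0.11 and 1.67, and the bound of Batf2 was 4.32 above the highest of them, Atf3. Between Mst1r vector and Slpi vector it exceeded the median of the others, 0.26, by 5.77. Between Slpi vector and empty vector no such value is given, since both signals were not well above background. Batf2 was put on the list with this difference known, so these values describe it and carry no test. The members just inside and just outside 2-fold were Fos at 1.22 and Fosb at 0.60.

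The choice of scaling moved the members together. Over 6 scalings the difference from empty vector on the Mst1r vector array ran (log2) from 5.92 to 6.25 for Batf2 and from 1.44 to 1.72 for Atf3. It ran from 0.99 to 1.26 for Fos, where the lowest value came without scaling. For Jun the range was 0.17 to 0.44 and for Junb 0.19 to 0.47, and Jund stayed below 0 at -0.34 to -0.07. Fosl2 turned sign, between -0.24 and 0.03. Fosl1 ran from 0.09 to 0.37. Between Slpi vector and empty vector the same scalings moved the median of all features from -0.23 to 0.17. With another background correction, normexp with an offset of 50, which compresses low signals, Batf2 differed by 4.004 and Fos by 0.86.

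**Figure D3:**
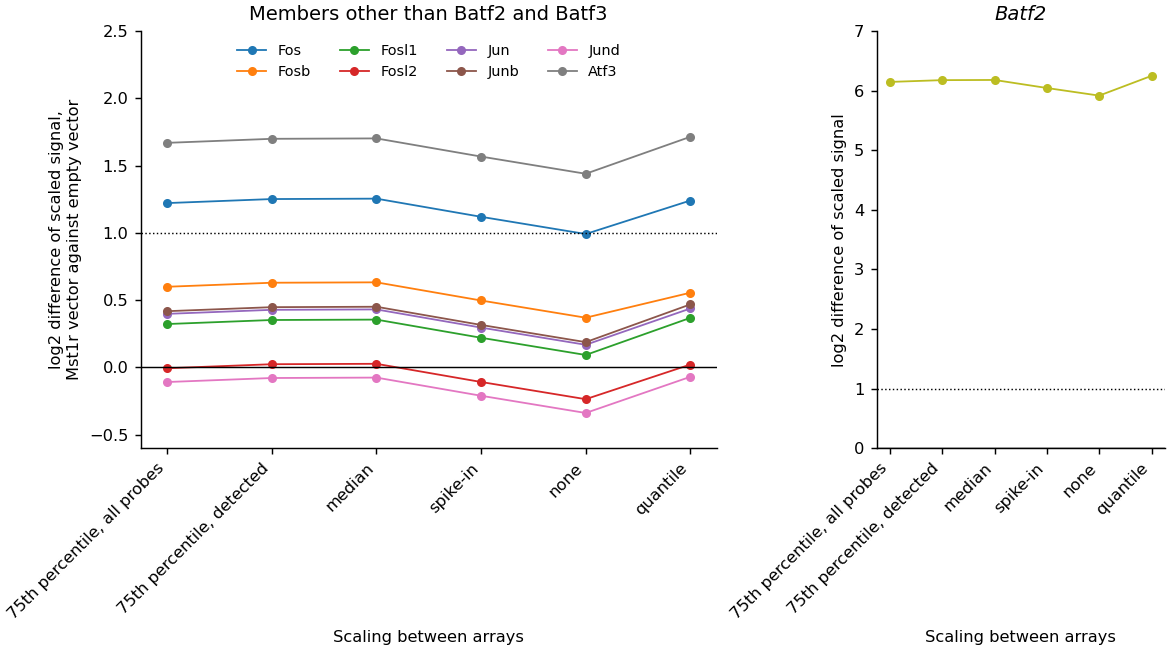
The difference of scaled log2 signal between Mst1r vector and empty vector under 6 scalings between arrays, for 8 genes on the left and Batf2 on the right with its own axis, and dotted lines at 2-fold. The lines run parallel, Fos reaches the 2-fold line without scaling, Fosl2 lies on both sides of 0, and Batf2 stays between 5.92 and 6.25.

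The rows of the array held different shares of large differences, so the position of the 3 higher genes was looked at. In rows 129 to 384, where Batf2 and Fos lie, 1.96% of the features counted were 2-fold or more above empty vector with Mst1r vector, and 0.126% were 10-fold or more above it. Batf2 exceeded its scaled empty vector signal by 1014 intensity units, and 0 of the 18626 probes of these rows that were dark on both other arrays reached that. For Fos the excess was 182, which 1 of the 18626 dark probes reached. Over all rows of the Mst1r vector array 4 dark control spots reached it, while the brightest in rows 129 to 384 was at 123. Atf3 lies in the upper rows, and 0 of the 7008 dark probes there reached its excess of 1501. Features at least 2-fold higher were more frequent in those upper rows. Of 784 such features over all rows, 218 lay in rows 129 to 384, which held 11147 of the 18018 features counted. The neighbouring probes well above background had median log2 differences of 0.09 around Batf2 (9 probes, -0.53 to 1.44), 0.03 around Fos (10 probes, -0.06 to 0.35) and -0.30 around Atf3 (6 probes, -0.54 to -0.01). The 3 genes were taken for being at least 2-fold higher, so that they lay above these neighbours was largely fixed by that choice. The part of position in these differences was not tested. Features well above background on both arrays were at least 2-fold higher in 2.46% of cases, and Atf3 and Fos are among them.

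**Figure D4:**
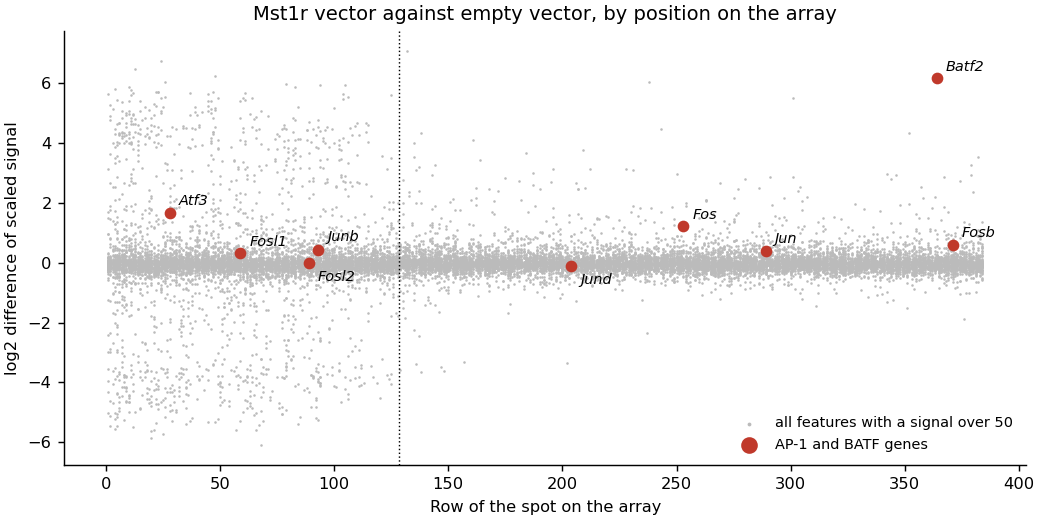
The difference of scaled log2 signal between Mst1r vector and empty vector against the row of the spot for all features with a signal over 50 (grey) and the 9 AP-1 and BATF genes with such a signal (red), with a dotted line after row 128. Large differences in both directions crowd rows 1 to 128, where Atf3 lies, and Batf2 in row 364 stands far above the band of features around it.

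Beyond the 10 members, 40 other bZIP genes were matched, and 32 of them had a signal over 50 between Mst1r vector and empty vector. The genes at least 2-fold higher were Nfe2, Crem and Cebpd, which is 3 of 32, and 0 were lower, where 4.35% and 3.43% of all features were. Nfe2 and Crem had a signal over 50 only on the Mst1r vector array, so they were counted through the same value that made them higher. Nfe2, a factor of blood cells, was at 4.33, 193 and 3.80 on the empty, Mst1r and Slpi vector arrays, which is at least 11.96-fold above empty vector with Mst1r vector. Its probe was in row 23, and its signal was below the brightest dark control spot of that array, at 289. Crem, a cyclic AMP response factor, was at 37.2, 124.7 and 38.7 in row 47, also below that spot, with a log2 difference of 1.98 ± 0.39. Cebpd, an acute phase factor, was at 878, 2646 and 787 in row 196, a log2 difference of 1.82 ± 0.13. Cebpd lay outside the upper rows and Nfe2 and Crem within them. The median of the 32 was 0.12, and -0.11 without scaling, where that of all features was -0.27. With scaling 21 of them (65.6%) lay above 0, where 42.3% of all features did. With Slpi vector 0 of 30 were at least 2-fold apart.

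The kinases and regulators that act on AP-1 held 22 genes with a signal over 50, with a median of -0.02 between Mst1r vector and empty vector. Of these 0 were at least 2-fold higher and 1 was lower. This was Map3k5, or ASK1, a kinase upstream of JNK and p38, at 317, 73.0 and 92.1 in row 51. Its log2 difference was -1.89 ± 0.22 for Mst1r vector and -1.71 ± 0.22 for Slpi vector, which share the empty vector array. The dimmer Map3k5 probe, at 60.7, 32.2 and 56.6 in row 303, gave -0.68 and -0.02 instead, so the probes disagreed on the Slpi vector.

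Of 25 AP-1 target genes with a signal over 50, 1 passed 2-fold upwards with Mst1r vector and 2 passed it downwards, where 4.35% and 3.43% of all features did. Il6, a cytokine of the acute phase, was at 114.0, 543 and 101.2 in row 286, a log2 difference of 2.48 ± 0.22. The matrix metalloproteinases Mmp10 and Mmp3 went the other way. Mmp10 was at 1131, 292.5 and 958 in row 60 (-1.72 ± 0.13), and Mmp3 at 1069, 450.4 and 929 in row 274 (-1.02 ± 0.13). The median of the list was -0.02, close to that of all features. With Slpi vector 0 of the 25 were at least 2-fold apart.

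The list of interferon partners and inducers of Batf2 held 15 genes with a signal over 50. Its median was 0.22 for Mst1r vector against empty vector, or -0.0066 without scaling, and 0.0035 for Slpi vector. Ifnb1, which encodes interferon beta, was the gene at least 2-fold higher, at 144, 383 and 122 in row 207 (1.64 ± 0.22). Irf1, a partner of BATF proteins named here after its values were seen, was at 3070, 5045 and 3157 in row 1 (0.95 ± 0.13), and its dimmer probe, at 71.8, 126.2 and 86.9 in row 383, gave 1.04 ± 0.27. Of the 15 genes 12 lay above 0 with Mst1r vector, where 42.3% of all features did, and 8 did so with the Slpi vector, where 50.35% did.

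**Figure D5:**
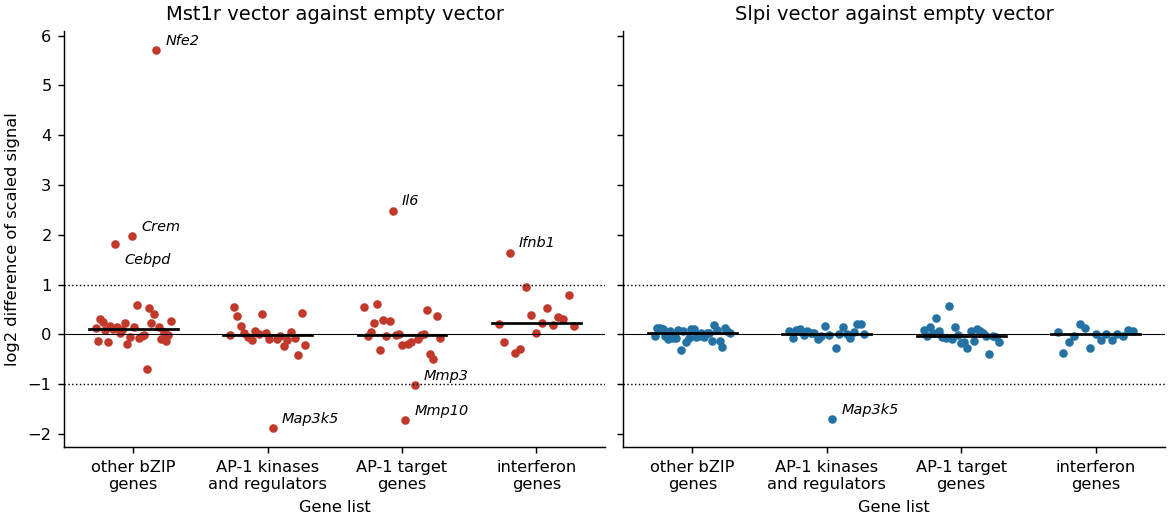
The log2 difference of scaled signal from empty vector of each gene with a signal over 50 in 4 lists, with Mst1r vector on the left and Slpi vector on the right, black bars for list medians, dotted lines at 2-fold and names for genes past them. The list medians lie between -0.02 and 0.22 with Mst1r vector and between -0.03 and 0.03 with Slpi vector, and the named genes are single points.

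The genes whose pattern was most like that of Batf2 were found from the distance between the 3 scaled log2 signals, centred on their mean, among 7289 genes well above background with Mst1r vector and above each dark control spot. With only 3 arrays the measure mainly picks genes that were high on the Mst1r vector array. The Batf2 signals on the other arrays were not well above background, so the distances rest on a bound and set no order among these genes. Ina, a neuronal intermediate filament, was at a distance of 0.39, with signals of 55.2, 2297 and 49.3 in row 125. AF067063, of unstated function, was at 0.74, with 309.8, 35360 and 320.7 in row 132. Gbp2, a guanylate-binding protein, was at 1.69 with 295, 3926 and 255.5 in row 32. Iigp1, an immunity-related GTPase, was at 2.12 with 310.1, 2827 and 260.0, and Gm4951 at 2.41 with 78.4, 576 and 70.0. Each of these was highest on the Mst1r vector array, which the measure favours, and 0 of the 9 other members were among them. Fos (319), Fosb (77.1) and Batf3 (8.99) had Mst1r vector signals below the brightest dark control spot, at 481, and could not enter.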

How the data were processed

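RNA from 3 transfected samples of Hepa1c1c7 cells, grouped by their labels, was hybridised to 1 single-colour array each. Per the file headers, the authors extracted spot intensities with Agilent Feature Extraction 12.0.3.1. The deposited processed signal is an intensity on a linear scale, background-subtracted and not scaled between arrays. A deposited value table held the same intensities within 0.01 (log2) for 99.95% of 169815 values. Nothing was saturated.

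From these, log2 signals were averaged over the spots of a probe without outlier spots, and the 75th percentile over 56605 non-control probes was subtracted, as the methods of the study do. Accessions were named through RefSeq (GRCm38.p6), which matched 25126 of 47837. Each gene was represented by its brightest probe. A gene was counted with a signal over 50 on the brighter array and at least 2-fold apart. Where 1 side was not well above background, the fold is a bound, the dim side being replaced by the lowest well above background signal of the array where its own was lower. No test was made, with 1 array per group. All arrays lay on 1 slide and in 1 scan, so slide position and group cannot be told apart. The errors came from repeatedly printed probes, spike-in and control probes included, and the number of arrays limits the precision.

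The members and lists were chosen with earlier results of these data known. All 10 members, the transfected genes, list genes at least 2-fold apart (at most 6 per list and comparison) and the 5 genes nearest to Batf2 were named. Of 154 listed genes 1 had no match, Atf7. Probes under 15 on an array are called dark. Alternatives were 5 other scalings, normexp (offset 50), other probe, spot and signal filters, the value table, and rows 129 to 384 alone. Normexp used the median spot intensity, since a mean was not among the columns used. The motifs TGACG and TATAAA were added after the promoters were seen, and proteins were not used here. Python 3.11.15, numpy 2.4.6, pandas 2.3.3, scipy 1.17.1, matplotlib 3.10.9, R 4.3.3 and limma 3.58.1 were used, and the scripts were tested on simulated data.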

Additional observations from a re-analysis of the deposited data

Results flagged for a closer look

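Signal was found on control spots outside the comparisons. These spots carry probes without target, most of whose copies were dark. On the empty vector array 25 of 2688 had a processed signal over 50, which is 0.930% (exact 95% binomial interval 0.603 to 1.37, counting error only). On the Mst1r vector array 39 of 2653 did, or 1.47%, and on the Slpi vector array 27 of 2653, or 1.02%. The brightest reached 207, 289 and 481. Of these spots 25, 37 and 26 lay in rows 1 to 128, where the probes of Atf3, Fosl1, Fosl2, Junb and Batf3 also lie. The Mst1r vector signals of Batf2 at 1029 and Atf3 at 2189 were above each of them. That of Fos at 319 was above the 289 of its own array, but Fos was already at 160.5 with empty vector. Its excess over the scaled empty vector signal was 182, which 4 dark control spots of the Mst1r vector array reached. The Fos probe lies in row 253, and outside rows 1 to 128 the brightest of these spots on that array was at 123.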

How the results depend on the processing

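No difference of at least 2-fold turned direction under the alternatives run. Of the 3 members at least 2-fold higher with Mst1r vector, Fos fell below 2-fold against empty vector without scaling and with normexp, and Atf3 has no probe in rows 129 to 384. In all, 340 of the main values under alternatives moved by less than the spread between spots or within 1.5 times, and 36 moved further. Of the values of single members 274 stayed so and 43 moved further. Batf2 exceeded the median of the other members between Mst1r vector and empty vector by 3.61 with normexp, in place of 5.74. With a signal minimum of 200, or in rows 129 to 384 alone, 1 other bZIP gene in place of 3 passed 2-fold upwards with Mst1r vector, against either other array. In those rows 0 kinases in place of 1 were lower with either vector, 2 interferon genes in place of 1 were higher, and 1 target gene was lower against empty vector and 0 against Slpi vector. The target genes lower against empty vector also numbered 1, in place of 2, with the percentile of detected probes, median scaling and quantile normalization, and those lower against Slpi vector 2, in place of 1, with median scaling and without scaling. List medians moved with those of all features. For other bZIP genes, kinases, targets and interferon genes in this order, the medians of Slpi vector against empty vector were 0.19, 0.18, 0.14 and 0.17 with median scaling (all features 0.17), and -0.21, -0.23, -0.27 and -0.23 with spike-in scaling (all features -0.23). Without scaling those of Mst1r vector against empty vector were -0.11, -0.25, -0.25 and -0.0066 (all features -0.27), and against Slpi vector -0.054, -0.20, -0.16 and 0.18 (all features -0.18). Against Slpi vector the kinases were at -0.18 and the interferon genes at 0.20 with median scaling, and kinases, targets and interferon genes at 0.088, 0.12 and 0.47 with spike-in scaling. In rows 129 to 384 a gene was represented by its brightest probe of those rows, which for Irf1 and Map3k5 was the dimmer one. The cause of the other moves was not tested. No paired analysis was possible because each group held 1 array, and for the same reason no array could be left out. What an array cannot show here is a level below its background, as for Batf2 without Mst1r vector and for Batf3.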
